A study of Mus musculus with 15 samples.

Results

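The genes described here encode proteins of the desmosome, the junction that ties the intermediate filaments of neighbouring epithelial cells together. They are 10 genes chosen by name: the desmosomal cadherins DSG2, DSC2 and DSC3, the armadillo proteins JUP, PKP1, PKP2 and PKP3, the plakins DSP and PPL, and the membrane protein PERP. All 10 were in the count table of 25382 genes, and 9 of them passed the filter on low counts and were tested. DSC3 did not pass.

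In a desmosome the cadherins desmoglein and desmocollin reach across the gap between cells. Plakoglobin (JUP) and the plakophilins bind their tails inside the cell, and desmoplakin (DSP) links this plaque to keratin or vimentin filaments. Desmosomes hold tissues under mechanical load together, and epithelial cells that take on a mesenchymal state often lose part of them.

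All tumours were of the same cell line, MDA-MB-231, a human triple-negative breast cancer line with mesenchymal features, here GFP+ and Luc+, in mice whose strain the labels call Nod/Skid. The cells had been sheared in one of 3 ways: weakly adherent cells at 10 dyn/cm2, strongly adherent cells at 50 dyn/cm2, and unsorted cells not at all. There were 4 strongly adherent, 5 unsorted and 6 weakly adherent libraries of bulk mRNA from dissociated tumours. Ages and sexes of the mice are not given in the sources used here, and neither is whether each library is a different animal. The p-values thus measure the spread between these samples only, which may be technical. Each title also carries a number (4, 5, 6, 7-8, 9 or 10) that recurs across the adhesion groups, and the labels do not say what it stands for. Tests of title numbers use the spread of libraries within a number and treat those libraries as separate samples. Whether libraries of a number share an animal or a batch is not given. Libraries are called by adhesion group and number, as in unsorted library 9.

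Library totals ran from 30372619 to 45434799 counts. Levels are given as CPM, counts relative to the library's total after scaling by edgeR's TMM factors. A count of 0 allows a level of up to 3 counts, which is 0.0631 to 0.1001 CPM here and covers counting error only. The 3 libraries titled number 6 stood apart from the other 12, and strongly adherent library 5 stood apart through muscle transcripts. The summed level of 12 striated muscle genes was 154 to 993 CPM in the number 6 libraries and 2410 CPM in strongly adherent library 5, against 5.03 to 12.7 CPM in the other 11. GEO lists these samples as mouse, but the counted genes are human, and host transcripts similar enough to a human gene may have been counted with it. In bulk samples, fewer cells of a type and less RNA per cell cannot be told apart.

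Most desmosome transcripts were lower in the 3 tumours titled number 6 than in the other tumours. Of the 9 tested members, 8 were lower there than in the other title numbers, by 0.67 to 1.79 on the log2 scale, and only PKP2 did not pass the test. Of all 15190 genes tested, 16.4% were called lower there. Between adhesion groups none of the 9 passed, where 0% of all genes did. The plot of levels by library shows both patterns.

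**Figure D1:**
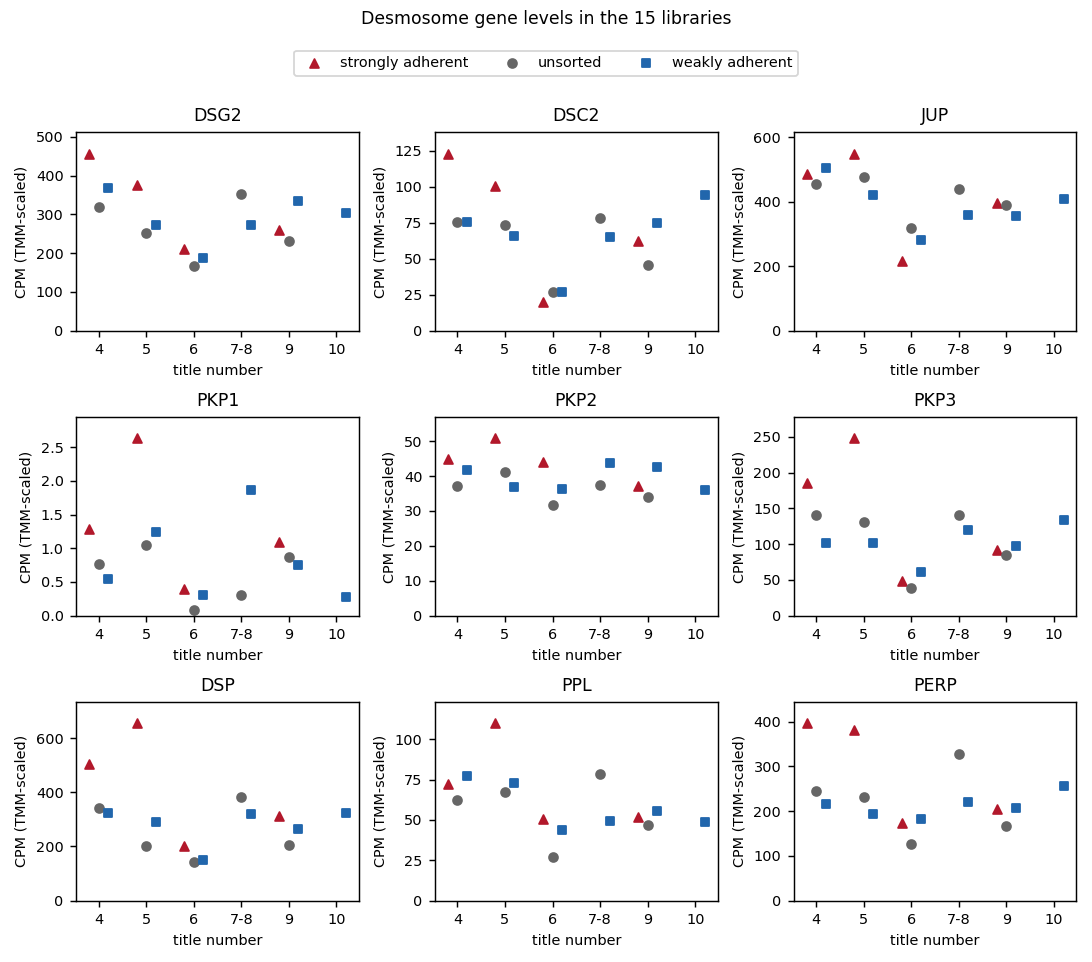
Level of 9 desmosome genes in each of the 15 libraries (y axis, TMM-scaled CPM from 0, a different range for each gene) by title number (x axis), with 1 point per library, coloured and shaped by adhesion group. For DSC2, DSG2, JUP and PKP3 the 3 number 6 libraries sit below all other 12, while for PKP2 they lie at 31.7 to 43.9 CPM against 34.0 to 50.8 CPM.

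The desmosomal cadherins were represented by DSG2 and DSC2. DSC2, desmocollin 2, stood at 19.6 (strongly adherent), 26.6 (unsorted) and 27.0 CPM (weakly adherent) in number 6. The other strongly adherent libraries were at 123 (number 4), 101 (5) and 62.4 CPM (9), and the other unsorted libraries at 75.6 (4), 73.2 (5), 78.4 (7-8) and 45.9 CPM (9). The 6 weakly adherent libraries ran from 27.0 to 93.95 CPM with a median of 70.3. The number 6 libraries were thus all below the other 12, of which unsorted library 9 was the lowest. The log2 fold change of number 6 against the mean of the other 5 numbers, adjusted for adhesion group, was -1.69 ± 0.21 (SE; edgeR quasi-likelihood test, Benjamini-Hochberg adjusted p = 0.000326).

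DSG2, the desmoglein found in simple epithelia and in many carcinomas, followed with a smaller difference. It stood at 211 (strongly adherent), 166 (unsorted) and 186 CPM (weakly adherent) in number 6. The other strongly adherent libraries were at 457 (4), 375 (5) and 261 CPM (9), and the other unsorted ones at 320 (4), 252 (5), 352 (7-8) and 232 CPM (9). The other weakly adherent libraries ran from 271 to 369 CPM. No number 6 library reached the lowest of the other 12. The difference from the other numbers was -0.76 ± 0.15 in log2 (edgeR adjusted p = 0.00297).

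DSC3, desmocollin 3 of basal and stratified epithelium, was barely counted. It had 19 counts in all, at most 3 in any library, and 0 in 3 of the 15 libraries. At this depth no difference in DSC3 was detectable. Other desmosomal cadherins of stratified epithelium were also scarce. DSG1 had 2 counts in all, DSC1 9, DSG4 15 and DSG3 71, with at most 23 DSG3 counts in any library.

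Among the armadillo proteins, PKP3 had the smallest p in this contrast. PKP3, plakophilin 3, the plakophilin found in most epithelial desmosomes, stood at 48.7 (strongly adherent), 38.3 (unsorted) and 60.5 CPM (weakly adherent) in number 6. The other strongly adherent libraries were at 186 (4), 248 (5) and 91.8 CPM (9), and the other unsorted ones at 141 (4), 131 (5), 141 (7-8) and 84.8 CPM (9). The other weakly adherent libraries ran from 97.9 to 134 CPM. All number 6 libraries were below the other 12, and the log2 fold change was -1.43 ± 0.23 (edgeR adjusted p = 0.00131).

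JUP, plakoglobin, a plaque protein shared by desmosomes and adherens junctions, stood at 216 (strongly adherent), 319 (unsorted) and 282 CPM (weakly adherent) in number 6. The other 12 libraries ran from 356 CPM in weakly adherent library 9 to 550 CPM in strongly adherent library 5, so number 6 and the rest did not overlap. Number 6 differed from the rest by -0.67 ± 0.13 in log2 (edgeR adjusted p = 0.00372). In number 6 the strongly adherent library was the lowest for JUP, while in number 5 it was the highest.

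PKP1, the plakophilin of stratified epithelium, was rare. It had 3 to 15 counts in the number 6 libraries (0.0763 to 0.401 CPM) and 10 to 125 counts in the others (0.273 to 2.63 CPM). These ranges overlapped through weakly adherent library 10 and unsorted library 7-8, at 0.273 and 0.298 CPM. Its log2 fold change of -1.79 ± 0.53 (edgeR adjusted p = 0.0262) has the widest interval of the 9 members, from -2.95 to -0.64. Without strongly adherent library 6 its adjusted p was 0.0847, and without unsorted library 6 it was 0.0952.

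PKP2, plakophilin 2, which is also the plakophilin of heart muscle, varied least of the 9, between 31.7 and 50.8 CPM. It stood at 43.9 (strongly adherent), 31.7 (unsorted) and 36.2 CPM (weakly adherent) in number 6. The other strongly adherent libraries were at 44.7 (4), 50.8 (5) and 37.1 CPM (9), and the other unsorted ones at 37.1 (4), 41.2 (5), 37.5 (7-8) and 34.0 CPM (9). The other weakly adherent libraries ran from 36.1 to 43.8 CPM. The number 6 libraries lay within or just below the range of the others, 34.0 to 50.8 CPM. Its log2 fold change was -0.11, with a 95% interval from -0.35 to 0.13 (edgeR adjusted p = 0.468).

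The plakins connect the plaque to the filaments. DSP, desmoplakin, the obligate linker of every desmosome, stood at 202 (strongly adherent), 142 (unsorted) and 150 CPM (weakly adherent) in number 6. The other strongly adherent libraries were at 504 (4), 654 (5) and 311 CPM (9), and the other unsorted ones at 340 (4), 202 (5), 384 (7-8) and 206 CPM (9). The weakly adherent libraries other than number 6 were close together, between 265 and 323 CPM. Strongly adherent library 6 and unsorted library 5 were level, so number 6 and the rest touched for DSP. For DSP the log2 fold change was -1.10 ± 0.18 (edgeR adjusted p = 0.00143).

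PPL, periplakin, a plakin of the cell cortex and of desmosomes in epithelia, stood at 50.5 (strongly adherent), 27.2 (unsorted) and 43.9 CPM (weakly adherent) in number 6. The other 12 libraries ran from 46.6 to 110 CPM, with a median of 64.9, and strongly adherent library 6 lay inside that range. For PPL the log2 fold change was -0.67 ± 0.18 (edgeR adjusted p = 0.0183), and without unsorted library 6 it was -0.45 with an adjusted p of 0.111.

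PERP, a tetraspan membrane protein of desmosomes and a target of p53 and p63, stood at 173 (strongly adherent), 125 (unsorted) and 183 CPM (weakly adherent) in number 6. The other 12 ran from 167 to 396 CPM, and strongly adherent libraries 4 and 5 were the highest, at 396 and 381 CPM. The log2 fold change was -0.70 ± 0.18 (edgeR adjusted p = 0.0155). Its adjusted p was 0.0997 without strongly adherent library 6 and 0.0881 without unsorted library 6.

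Many genes differed in number 6, and the count of 8 of 9 members has to be read against them. Of 15190 genes tested in this contrast, 27.9% passed in either direction and 16.4% passed as lower. The median log2 fold change was -0.76 over the 9 members and 0.01 over all genes tested. The count was 5 without unsorted library 6, where 22.1% of all genes passed, and 6 without strongly adherent library 6, where 12.9% did. In 4 members (DSC2, DSG2, JUP and PKP3) all 3 number 6 libraries lay below all 12 others, as they did in 10.4% of all genes tested, and in no member did they lie above (5.63% of all genes). That number 6 stands apart was known from earlier results of these data. The test treats the 3 number 6 libraries as separate samples, which the labels do not state.

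**Figure D2:**
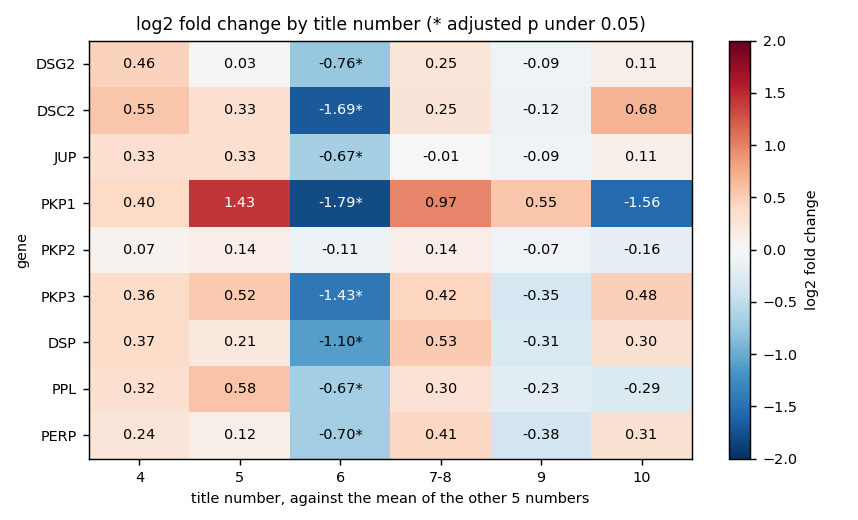
Log2 fold change of each tested desmosome gene (rows) in each title number against the mean of the other 5 numbers (columns), adjusted for adhesion group, with the value printed in each cell and a star at adjusted p under 0.05. Column 6 holds 8 starred values, from -1.79 to -0.67, and the other columns hold none.

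The other 5 title numbers did not set members apart. For numbers 4, 5, 7-8, 9 and 10 against the rest, 0 of 9 members passed by edgeR's quasi-likelihood test, and DESeq2 called 0 in each as well. At an unadjusted p under 0.05 there were 3, 4, 1, 0 and 1 members in this order, where 5.5%, 9.06%, 5.36%, 10% and 14.3% of all genes had such a p. At the adjusted threshold 0% of all genes were called for numbers 4, 5 and 10, 0.0658% for number 7-8 and 0.0197% for number 9 (0.0132% higher and 0.00658% lower). Number 10 is a single library. A joint test of any difference among the 6 numbers called 5 of 9 members (DSC2, DSP, PKP3, DSG2 and JUP, adjusted p from 0.00748 to 0.0367), against 7.9% of all genes. Without the 3 number 6 libraries it called 0 of 9 members and 0.0197% of all genes. The joint count was 1 without strongly adherent library 6 (2.52% of all genes) or without unsorted library 6 (3.9%), and 3 (4.15% to 6.09% of all genes) without any single one of strongly adherent library 4, unsorted libraries 4, 5 and 9, and weakly adherent library 4.

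For DSC2, which differed most clearly, the single library of number 10 stood at 93.95 CPM. The means ± SD of the other numbers followed at 91.3 ± 27.4 (n = 3) for number 4, 79.9 ± 18.4 (n = 3) for number 5, 71.6 ± 9.70 (n = 2) for number 7-8 and 61.1 ± 14.6 (n = 3) for number 9. Number 6 came last at 24.4 ± 4.17 (n = 3). Neighbours in this order differed by less than the larger of their SDs, except numbers 9 and 6.

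Relative to PKP2, which did not pass the test, the other members were lower in number 6 on average, as ratios of counts within a library show without any scaling. PKP3 counts were 1.11 to 1.67 times the PKP2 counts in the number 6 libraries and 2.29 to 4.88 times in the other 12. DSC2 counts were 0.447 to 0.840 times the PKP2 counts in number 6 and 1.35 to 2.75 times elsewhere. For JUP, PERP, PPL and PKP1 the ranges overlapped. JUP counts, for example, were 4.92 to 10.1 times the PKP2 counts in number 6 and 8.21 to 12.3 times elsewhere. Mean log2 ratios to PKP2 were lower in number 6 for each of the 8 other tested members, by amounts from 0.51 for PERP to 1.93 for PKP1. With the number 6 label moved within each adhesion group (120 relabelings, two-sided exact permutation test, Benjamini-Hochberg adjusted over 8 ratios), the adjusted p was 0.0133 for DSP, JUP, PKP3, DSG2 and DSC2, 0.0222 for PKP1, 0.0286 for PPL and 0.0417 for PERP. The smallest unadjusted p these relabelings can give is 0.00833. PKP2 was made the reference after its values were seen, and the test treats the libraries of a title number as separate samples. The 8 other members had already passed as lower in number 6 on the same counts. These p-values are therefore not separate evidence.

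The ratio of the cadherins to each other was also lowest in number 6. DSC2 counts were 0.0931 (strongly adherent), 0.160 (unsorted) and 0.145 times (weakly adherent) the DSG2 counts in number 6, against 0.198 to 0.309 times in the other 12. The 3 number 6 ratios were below all others, a description of a pair chosen after its values were seen.

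**Figure D3:**
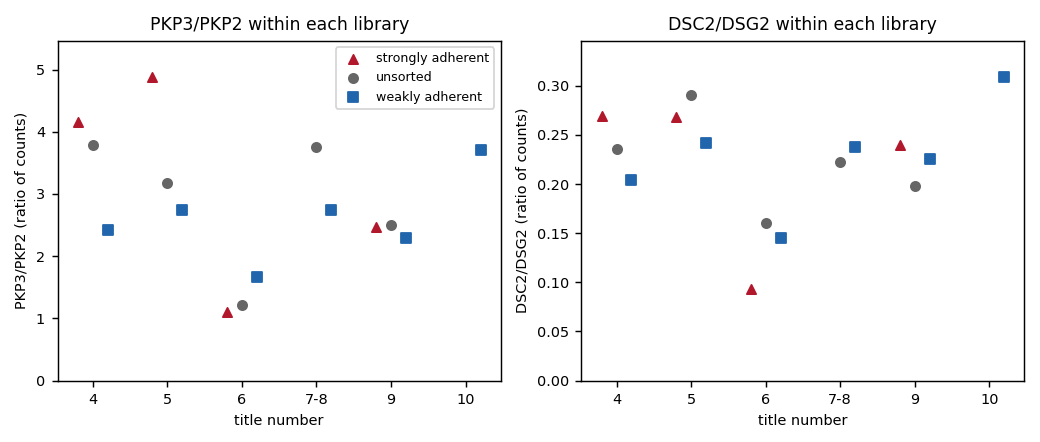
Ratio of PKP3 to PKP2 counts (left) and of DSC2 to DSG2 counts (right) within each library (y axes, from 0) by title number (x axis), 1 point per library, coloured and shaped by adhesion group. In both panels the 3 number 6 libraries are the lowest points, at 1.11 to 1.67 on the left and 0.0931 to 0.160 on the right.

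The adhesion groups were compared to ask whether tumours grown from more or less firmly attached cells carried different desmosome transcript levels. In tumours of strongly adherent cells DSP stood at 418 ± 201 CPM (SD, n = 4), in unsorted tumours at 255 ± 102 CPM (n = 5) and in weakly adherent tumours at 279 ± 67.3 CPM (n = 6). PERP had 289 ± 116, 219 ± 77.3 and 212 ± 25.5 CPM in the same order, PKP3 144 ± 90.0, 107 ± 44.9 and 102 ± 24.9 CPM, and PKP2 44.1 ± 5.58, 36.3 ± 3.62 and 39.6 ± 3.54 CPM. The ranges of the adhesion groups overlapped for all 9 members in all 3 comparisons, where the groups did not overlap in 0.29% (weakly against strongly adherent), 0.0724% (weakly adherent against unsorted) and 1.42% (strongly adherent against unsorted) of all genes tested.

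DSG2 stood at 326 ± 111 CPM in strongly adherent, 264 ± 73.5 in unsorted and 289 ± 62.8 in weakly adherent tumours, and DSC2 at 76.4 ± 45.4, 59.9 ± 22.8 and 67.0 ± 22.2 CPM. JUP had 412 ± 145, 416 ± 63.4 and 389 ± 75.2 CPM, PPL 71.0 ± 27.7, 56.4 ± 19.9 and 57.8 ± 13.8 CPM, and PKP1 1.35 ± 0.932, 0.610 ± 0.407 and 0.832 ± 0.619 CPM. For 8 of the 9 members, JUP being the exception, the strongly adherent mean was the highest, and for all 9 its SD was the largest. Without the number 6 libraries DSP stood at 490 ± 172 CPM (n = 3), 283 ± 92.9 (n = 4) and 305 ± 26.1 (n = 5) in the same order.

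Strongly adherent against unsorted tumours, 0 of 9 members passed by edgeR's quasi-likelihood test, where 0% of all genes did. Log2 fold changes were positive for 8 members, with a median of 0.35 against 0.02 over all genes tested. DSP had 0.71 with a 95% interval from -0.02 to 1.45, and PKP2 had 0.28 (0.05 to 0.52). PKP2 was the single member at an unadjusted p under 0.05, with an edgeR adjusted p of 0.975, where 3.77% of all genes had such an unadjusted p. PKP1 had 1.15 (-0.32 to 2.61), PKP3 0.42 (-0.52 to 1.36), PERP 0.40 (-0.17 to 0.97) and JUP -0.01 (-0.49 to 0.46). DESeq2 with the same single term also called 0 members. Same-numbered libraries of these groups deviated together, though some correlated better with another number. Both tools were therefore also run with the title number as a block. DSP then had 0.80 in edgeR (adjusted p = 0.561, 0 members called) and 0.79 in DESeq2 (adjusted p = 0.0252, the single member called, with 0.142% of all genes called), a DESeq2 fit added after seeing the data. Without strongly adherent library 5, which holds the muscle transcripts, DSP had 0.41 and PKP3 0.02, and the median of the 9 members was 0.207. Without strongly adherent library 6 that median was 0.58.

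Weakly against strongly adherent tumours, 0 of 9 members passed by edgeR or DESeq2, none had an unadjusted p under 0.05, and 0% of all genes passed. The 9 fold changes were negative, with a median of -0.30 against -0.02 over all genes. DSP had -0.58 (95% interval from -1.29 to 0.12), PERP -0.44 (-0.99 to 0.10) and PKP3 -0.49 (-1.39 to 0.41), and JUP had -0.09 (-0.54 to 0.37). Without strongly adherent library 5 the DSP value was -0.28 and the median -0.0876, and without strongly adherent library 6 the median was -0.51. Both of these comparisons use the same strongly adherent libraries, so they are not separate evidence.

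Weakly adherent against unsorted tumours, 0 of 9 members passed by edgeR or DESeq2, none at an unadjusted p under 0.05, with 0% of all genes called. The fold changes ran from -0.10 for JUP to 0.44 for PKP1, with a median of 0.12 against 0.00 over all genes. DSP had 0.13 (95% interval from -0.54 to 0.80), DSC2 0.16 (-0.75 to 1.07) and PKP2 0.12 (-0.09 to 0.34). These intervals leave room for differences in both directions.

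**Figure D4:**
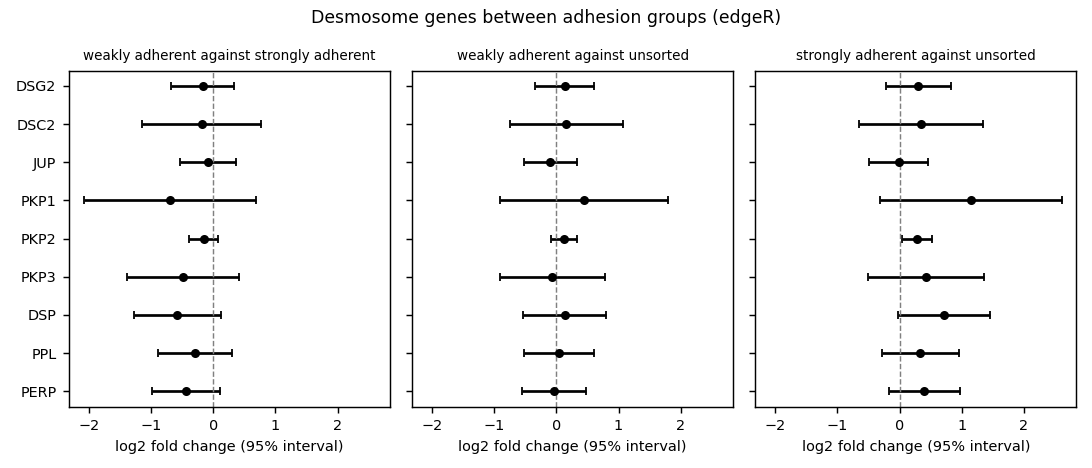
Log2 fold change of the 9 tested desmosome genes (y axis) in the 3 adhesion comparisons (panels), with 95% intervals as horizontal bars and a dashed line at 0. All intervals except that of PKP2 in strongly adherent against unsorted (0.05 to 0.52) include 0.

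Set side by side within a title number, the strongly adherent library was higher than the unsorted one for most members. In title numbers 4, 5, 6 and 9, which have both, DSP differed by 0.57, 1.69, 0.51 and 0.60 in log2 CPM. PERP differed by 0.70, 0.72, 0.46 and 0.30, DSG2 by 0.51, 0.58, 0.34 and 0.17, and PKP2 by 0.27, 0.30, 0.47 and 0.13. For 7 of the 9 members the strongly adherent library was higher in all 4 numbers, as it was for 10.7% of all genes tested, and it was lower in all 4 for no member (9.03% of all genes). The exceptions were DSC2 and JUP, which were lower in strongly adherent library 6, by -0.44 and -0.56. Most members rank the libraries alike, so these 7 are not 7 separate observations.

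**Figure D5:**
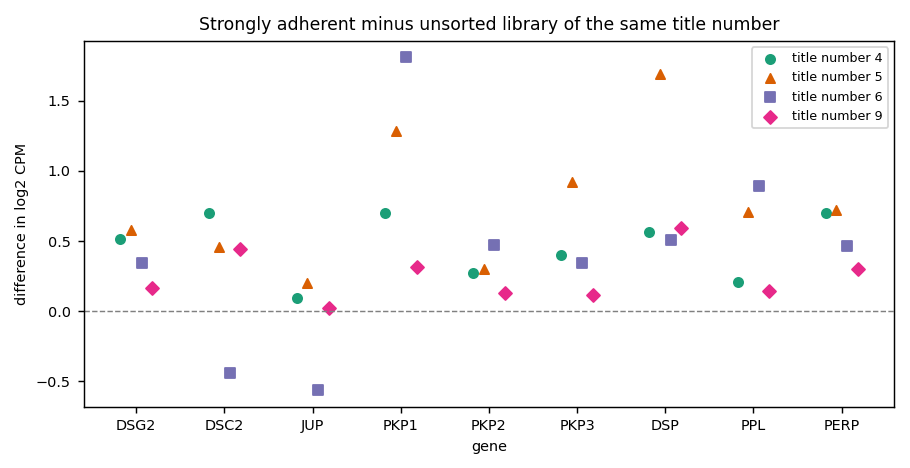
Difference in log2 CPM (y axis) between the strongly adherent and the unsorted library of the same title number for 9 desmosome genes (x axis), 1 point per title number. All points lie above the dashed line at 0 except those of number 6 for DSC2 (-0.44) and JUP (-0.56), and the highest DSP point, 1.69, is number 5.

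The weakly adherent library was lower than the strongly adherent one in all 4 numbers for DSP, by -0.64, -1.16, -0.43 and -0.23 in numbers 4, 5, 6 and 9, and for PKP1. The share of all genes lower in all 4 was 6.16%, and no member was higher in all 4 (5.17% of all genes). For DSC2, PERP and PKP3 the sign differed between numbers 4 and 5, where the weakly adherent library was lower, and numbers 6 and 9. PKP3 had -0.88, -1.29, 0.31 and 0.09. Against unsorted, no member was higher in all 5 numbers (1.38% of all genes) or lower in all 5 (1.52%).

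Members other than PKP1 and PKP2 ranked the libraries alike. Spearman's rho of log2 CPM over the 15 libraries was 0.657 to 0.954 for the 21 pairs that hold neither PKP1 nor PKP2, and 0.455 to 0.930 over the 12 libraries without number 6. The closest pair was PKP3 and PERP (0.954 over 15 and 0.930 over 12 libraries). Pairs of PKP2 with members other than PKP1 had 0.368 to 0.614 over 15 and 0.392 to 0.692 over 12 libraries. Pairs with PKP1 had 0.271 to 0.550 over 15 and -0.112 to 0.49 over 12 libraries. The points share their library's depth, scaling and mixture of cells, so these values are descriptions.

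Among the genes whose log2 CPM ranked the libraries most like the mean of the 9 members, members left out, were FAM102A and UBE2H (rho 0.961 each over 15 libraries), the keratin gene KRT80 (0.95) and CDKN1A (0.939), which encodes the cell cycle inhibitor p21. Over the 12 libraries without number 6 their values were 0.930, 0.944, 0.902 and 0.902. These are among the highest of the tested genes with a mean of at least 1 CPM, so their values are selected.

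Of 9 other desmosome-associated genes 5 were tested, and 1 passed as lower in number 6, where 16.4% of all genes did. It was EVPL, which encodes envoplakin, the partner of periplakin (log2 fold change -0.48 ± 0.15, edgeR adjusted p = 0.0357). PNN, pinin, had 0.03, and PKP4, a plakophilin relative of cell junctions, had -0.10 at 40.6 to 49.8 CPM against 41.4 to 54.9. None of the 5 passed the joint test among numbers or an adhesion comparison.

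In the adherens junction, 3 of 8 genes passed as lower in number 6, where 16.4% of all genes did. These 3 were the cadherins CDH1, CDH2 and CDH3. CDH3, P-cadherin, stood at 1.63 to 9.58 CPM in number 6 and at 79.3 to 399 CPM elsewhere (log2 fold change -5.45 ± 0.77, edgeR adjusted p = 0.0019). The catenins CTNNB1 and CTNNA1, which bind the tails of these cadherins, had -0.31 (adjusted p = 0.114) and -0.02 (adjusted p = 0.921). CDH1, E-cadherin, stood at 0.267 to 5.56 CPM in number 6 and at 53.1 to 549 CPM elsewhere. Which tumours are closer to the line in culture was not tested. The fold changes of CDH3 and of CDH1 (-6.41 ± 1.14, edgeR adjusted p = 0.00554) were larger than that of any desmosome gene, a difference that was not tested.

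The 8 listed filament partners of desmoplakin all differed in number 6. Of these, 7 keratins were lower and VIM, vimentin, was higher (0.99 ± 0.24, edgeR adjusted p = 0.0108). Of all genes tested, 16.4% were lower and 11.6% higher. KRT10, a keratin outside this list, stood at 37.2 to 62.0 CPM in number 6 and 31.8 to 50.3 CPM elsewhere. KRT7, KRT8, KRT18 and KRT19, keratins of simple epithelium, had log2 fold changes of -1.24, -1.25, -1.13 and -0.85. KRT8 and KRT18 have many processed copies in the genome, so their counts are uncertain. Of 6 hemidesmosome genes, which anchor cells to the matrix, 1 passed as lower, COL17A1, a share close to the 16.4% of all genes. PLEC and ITGA6 had 0.03 and 0.04.

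Of 13 regulators of epithelial identity, 9 were lower and 1 higher in number 6, against 16.4% and 11.6% of all genes. OVOL2, a repressor of the mesenchymal programme, had 1 count over the 3 number 6 libraries and 1.11 to 6.43 CPM in the others. GRHL2, an activator of junction genes, stood at 0.0802 to 0.430 CPM against 10.7 to 86.6 CPM, and ESRP2, a splicing regulator of epithelia, at 1.40 to 4.52 against 11.8 to 54.1 CPM. TWIST1, known as a driver of the mesenchymal state, was lower as well (-1.79 ± 0.30, edgeR adjusted p = 0.00147). The single higher gene was ZEB1, a repressor of epithelial genes (1.32 ± 0.40, edgeR adjusted p = 0.0363). Of 5 genes of desmosome turnover, PRKCA passed as higher (0.72, edgeR adjusted p = 0.0351), and ADAM10 and EGFR had -0.31 and 0.49 (adjusted p of 0.0995 and 0.133). No gene of these 6 lists passed an adhesion comparison by edgeR.

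Markers of other cells gave these values beside the members. Skin keratinocytes carry many desmosomes. Of their 13 markers 5 were tested, and KRT5 and KRT14 passed as lower in number 6, where 16.4% of all genes did. They stood at 0 to 0.184 and 1.48 to 5.74 CPM against 1.24 to 12.2 and 9.62 to 26.7 CPM. KRT2 and LOR were at 0 in all 15 libraries and KRT1 had 1 count. The summed level of the 13 keratinocyte markers was 43.3 to 70.7 CPM in number 6 and 50.6 to 84.8 CPM in the rest, largely KRT10, at 37.2 to 62.0 and 31.8 to 50.3 CPM. Of 13 markers 5 to 9 had a count in any library.

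Heart muscle markers, of a tissue with desmosomes, summed to 5.06 to 24.8 CPM in number 6, 21.6 CPM in strongly adherent library 5 and 0.788 to 2.89 CPM in the other 11, with MYH6 at 4.57 to 22.8 CPM in number 6 and 15.3 CPM in strongly adherent library 5. NPPB had no count in any of these 4 libraries. The sum in number 6 was thus largely MYH6. Of 5 tested heart markers, 0 passed as higher in number 6 and 1 as lower, where 11.6% and 16.4% of all genes did. RYR2 stood at 0 to 0.0921 CPM in number 6 and 0.247 to 5.40 CPM in the other 12. Striated muscle transcripts were high both in strongly adherent library 5, where DSP, JUP, PKP3, PKP2, PKP1 and PPL were at their highest, and in number 6, where they were low or, for PKP2, within or just below the range of the others. Fibroblast markers summed to 188 to 361 CPM in number 6, 1341 CPM in strongly adherent library 5 and 423 to 1154 CPM in the other 11. Endothelial markers had 25.1 to 34.4, 9.34 and 10.4 to 23.0 CPM in the same order, and myeloid markers 123 to 205, 73.5 and 77.9 to 128 CPM. Mammary luminal markers had 3.16 to 9.52, 31.3 and 8.29 to 26.6 CPM, with the milk genes CSN2 and LALBA at 0. WFDC2 stood at 0.331 to 5.28 CPM in number 6 and at 6.28 to 30.4 CPM in the other 12, where it was most of this sum. PRLR differed the other way, at 2.75 to 4.21 against 0.778 to 2.80 CPM. Of 2 tested mammary markers, 1 passed as higher in number 6 and 1 as lower. The myeloid sum was largely CD68, at 111 to 193 CPM in number 6 and 53.2 to 110 CPM in the other 12. Of 5 tested myeloid markers, 1 passed as higher in number 6 and 2 as lower, where 11.6% and 16.4% of all genes did. PTPRC stood at 0.107 to 0.399 CPM in number 6 and 0.584 to 1.83 CPM elsewhere. Of 5 tested endothelial markers 3 passed as higher in number 6 and 0 as lower, and of 5 fibroblast markers 0 and 4, against the same shares. The endothelial marker TEK stood at 0.936 to 1.44 CPM in number 6 and 1.05 to 2.17 CPM elsewhere. The part of these cells in the desmosome values was not tested. The line's own VIM was lowest in strongly adherent library 5, at 1143 CPM, and stood at 6489 to 7399 CPM in number 6. VIM, CD44 and EGFR summed to 7278 to 8202 CPM in number 6, 1899 CPM in strongly adherent library 5 and 3840 to 5180 CPM in the other 11. The highest ESR1 and PGR values were 0.234 and 0.95 CPM, and ERBB2 ran from 76.6 to 145 CPM.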

How the data were processed

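The 15 libraries were read as 50 bp single-end reads from a TruSeq stranded kit, per the labels' protocols. The submitters' processing notes name hg19 and the tools cutadapt, STAR, HTSeq, DESeq2 and FastQC, without versions. The sources used here do not say how strand was handled in counting. The authors deposited raw counts for 25382 genes and a table of log2 values, each log2 of the count over a size factor plus 1 (to within 5.15e-14). Tests used the counts.

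Tests ran in edgeR 4.0.16 under R 4.3.3: TMM, filterByExpr, robust quasi-likelihood fit over all 15 libraries, Benjamini-Hochberg over 15190 genes, threshold 0.05. Adhesion comparisons had the group as single term. Title number contrasts had number plus group, and set 1 number against the mean of the other 5. SE was derived as |log2 fold change| / sqrt(F), and 95% intervals use it with the t distribution. Alternatives were DESeq2 1.42.0, its size factors in edgeR, no filter, other terms and each library left out. Deviations from the group means correlated in all 4 same-numbered pairs of strongly adherent and unsorted libraries (r from 0.280 to 0.750). Strongly adherent library 5 correlated more with unsorted library 4 (0.434) than with its own number. Strongly adherent library 4 likewise correlated more with unsorted library 7-8 (0.602). Pairing by number is thus not settled by the data or the labels. In each of the other comparisons 1 pair was under 0.1. The pairing was judged by comparison after the blocked fits were known. The scripts were tested on simulated data.

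The members, lists and tests were chosen with earlier results of these data known. Genes named from a list have the smallest p in the joint test among numbers (at most 4), or are the 2 of highest mean CPM where fewer than 2 pass. CDH1, CDH2, PKP4, COL17A1, ZEB1, EGFR, VIM, KRT5, KRT14 and the scarce cadherins were named after their values were seen. Human sequences and gene lengths were not used here, so levels are compared only within a gene, and a planned promoter motif search was not run. One gene of the likeness ranking is not reported here.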

Additional observations from a re-analysis of the deposited data

Results flagged for a closer look

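One of 27 sets of member values (9 members in 3 adhesion groups) held a library far from the others. DSP in weakly adherent library 6 stood at 150.2 CPM, and the nearest of the other 5 weakly adherent libraries was at 265 CPM. The gap was 0.660 of the group's whole range. By chance about 1 in 20 such sets would be flagged.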

How the results depend on the processing

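Of 202 alternative counts of members called, 191 stayed within 1.5 times the main count. The main count was 0 in the 3 adhesion comparisons and for each title number other than 6. Counts in those comparisons could only stay at 0 or rise, so the 191 say little about stability. Of 792 alternative fold changes, 760 kept their direction and side of the threshold, 24 changed sign, 7 lost the call and 1 gained it. The number 6 contrast called 8 members by DESeq2 (30.3% of all genes), with DESeq2 size factors (28.4%) and with no filter (18.8%). It called 6 without the adhesion term (27.2%). With single libraries left out it called 5 to 8 of 9 members, and 12.9% to 27.9% of all genes. The joint test called 8 members by DESeq2 (3346 genes in all against 1200, or 21% against 7.9%). It called 0 without number 6 (0.0197% of all genes), and 1 to 6 with single libraries left out (2.52% to 10.6%). The 3 adhesion counts stayed at 0 with any library left out. With the title number as a replicate block in edgeR they were 0, 0 and 0, and DESeq2 with that block, added after seeing the data, called 1 member, DSP in strongly adherent against unsorted (0.79, adjusted p = 0.0252). The block changed no other member's call. Over all comparisons 11 of 13 same-numbered pairs had r above 0.1 (0.016 to 0.767), and 9 of 14 libraries correlated best with their own number. Pairing by number is thus not shown. Without number 6, PPL in weakly adherent against unsorted was -0.0655 and JUP in strongly adherent against unsorted 0.11, or 0.0686 with the block. With single libraries left out, values that changed sign ran as follows. Weakly against strongly adherent, JUP ran from -0.30 to 0.0851, DSG2 from -0.33 to 0.0364 and DSC2 from -0.51 to 0.14. Weakly adherent against unsorted, DSP ran from -0.0219 to 0.33, PKP3 from -0.28 to 0.0542, DSG2 from -0.00040 to 0.25, DSC2 from -0.0311 to 0.32, PERP from -0.19 to 0.15 and PPL from -0.14 to 0.19. JUP in strongly adherent against unsorted ran from -0.18 to 0.20. The cause of these changes was not tested. Depth limits DSC3 and PKP1, which had at most 3 and 125 counts in a library.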
